A study of Mus musculus with 4 samples.

Results

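The R-spondin, Lgr and Znrf3 axis was followed in embryonic mouse kidneys after loss of Sall1, through 9 genes: the ligands Rspo1, Rspo2 and Rspo3, the receptors Lgr4, Lgr5 and Lgr6, the ubiquitin ligases Znrf3 and Rnf43, and Axin2, a transcriptional readout of Wnt signalling. The probes were all those whose RefSeq accession on the array belongs to one of these genes, which gave 10 probes for 9 genes among 55681 probes and 20018 named genes. Axin2 had 2 probes and every other gene had 1. Tests covered 8 of the 9 genes, those whose probe the scanner software marked as well above background on each array of one group or of both; Lgr6 was left untested.

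Total RNA of kidneys at E13.5 was hybridised to 4 one-colour Agilent arrays. The Sall1 knockout group had 2 arrays and its sample titles name CreER and KO, whereas the control group had 2 arrays whose titles name flox. For all 4 samples the labels give tamoxifen at E12.5 and a hybrid background of 129 and C57BL/6. CreER is Cre recombinase fused to part of the oestrogen receptor, which tamoxifen activates, and Sall1 encodes a zinc finger protein needed for kidney development. The protocol names the line Sall1CreER; the cells in which it acts, whether control kidneys carry CreER, the litters, and whether a sample is 1 embryo or a pool were not stated in the labels. An effect of CreER therefore cannot be told apart from that of Sall1 loss, and p-values measure only the spread between these samples.

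R-spondins are secreted proteins that strengthen Wnt signalling rather than start it. Znrf3 and Rnf43 are membrane ligases that mark Frizzled receptors for removal from the cell surface; an R-spondin bridges an Lgr receptor and a ligase, the ligase is cleared, and Wnt receptors accumulate. Axin2 is switched on by beta-catenin and in turn promotes its breakdown, so that it is widely used as a readout. In the mouse kidney Rspo1 and Rspo3 are known to be needed for nephron progenitors to persist and differentiate, and loss of Lgr4 gives small kidneys.

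Upstream sequence is shown for Rspo1, the only one of the 3 ligands with an entry in the RefSeq promoter table used (GRCm38.p6), and for Axin2, the readout. Each run holds the 250 bases before an annotated transcript start, 5′ to 3′, on the plus strand, at chr4:124986180-124986429 for Rspo1 and chr11:108920099-108920348 for Axin2. The Axin2 window lies inside the annotated gene, and the end of the Rspo1 window runs past the annotated gene start at 124986401. They were searched on both strands for CTTTGAA and CTTTGAT, 2 forms of the site bound by the TCF and LEF partners of beta-catenin, and a match would stand in capitals.
Rspo1: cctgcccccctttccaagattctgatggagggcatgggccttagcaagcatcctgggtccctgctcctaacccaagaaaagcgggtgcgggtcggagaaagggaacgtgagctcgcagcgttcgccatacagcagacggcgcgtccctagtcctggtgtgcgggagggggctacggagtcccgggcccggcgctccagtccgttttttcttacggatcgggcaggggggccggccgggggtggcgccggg
Axin2: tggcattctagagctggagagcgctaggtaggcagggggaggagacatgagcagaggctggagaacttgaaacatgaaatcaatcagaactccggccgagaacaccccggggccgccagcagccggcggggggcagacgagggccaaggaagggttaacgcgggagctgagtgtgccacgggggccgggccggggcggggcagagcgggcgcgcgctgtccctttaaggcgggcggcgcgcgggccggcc
Neither window held a match, and among 32851 promoter windows of this length 7.48% held one. Of the 9 genes 5 had an entry, with 6 windows in all, of which 0 held a match; this says only that these letters are not in these windows. GC content was 66.8% for the Rspo1 window, with 22 CG dinucleotides, and 69.2% for the Axin2 window, with 24.

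Between 60.6% and 64.2% of the spots that are not controls were well above background, 0 spots were saturated, and Pearson's r over kept probes, which are not independent replicates, was 0.9961 between the Sall1 knockout arrays, 0.9951 between the control arrays and 0.9929 to 0.9942 across groups. Sall1 itself had a log2 signal (scaled to the 75th percentile of the array) of 1.03 and 1.07 in the Sall1 knockout kidneys, against 1.79 and 1.81 in the control kidneys. Its log2 difference was -0.75 ± 0.056 (SE, n = 2 per group; adjusted p = 0.126 in limma) and the labels do not say whether its probe lies in the deleted exons. In limma 0 of the 25071 features tested (named genes and sequences without a name) passed an adjusted p of 0.05 in either direction, or 0% each; at 0.1, 0.0439% were called higher and 0.0399% lower. Unadjusted, 6.77% had a p under 0.05 and were higher and 5.94% were lower. With a variance prior that follows the signal and resists outliers (called trended and robust from here on), 0.542% were called higher and 0.654% lower. All 10 liver markers and all 10 macrophage markers were higher without overlap, against 21.5% of all tested. The liver markers had a summed signal, in units of the 75th percentile, of 40.4 to 43.8 in the knockout and 14.0 to 20.2 in the control arrays. The macrophage markers had a median log2 difference of 0.51. The part of either list in the members' values was not tested.

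The ligands differed most. Rspo3 and Rspo1 were lower in both Sall1 knockout arrays than in both control arrays, by 1.96-fold and 1.33-fold, while the dim Rspo2 probe was brighter on average but varied widely within each group. Among the tested receptors and ligases the largest difference was that of Lgr5, 1.14-fold lower with overlap of the groups. Axin2 was 1.11-fold lower on its brighter probe and 1.18-fold higher, with overlap, on its dimmer probe. No member passed over all genes tested in limma at an adjusted p under 0.05, where the calls cover 0% of all tested in each direction; at an unadjusted p under 0.05, 2 of 8 tested members were lower, Rspo1 and Rspo3, and 0 were higher, against 5.94% and 6.77% of all tested.

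Rspo3, a ligand that binds Lgr4, Lgr5 and Lgr6, had processed signals (background-corrected spot intensity ± the scanner software's error of the spot) of 1078 ± 108 and 1128 ± 113 in the Sall1 knockout kidneys, against 2540 ± 254 and 2159 ± 216 in the control kidneys. The groups lay far apart, and the replicates of a group lay close together. Scaled to each array, the log2 signal was 1.01 and 1.11 in the knockout and 2.09 and 1.98 in the control arrays, a log2 difference of -0.97 ± 0.076 (SE, n = 2 per group; 95% interval -1.19 to -0.75). Of the 25071 features tested, 94 (0.375%) were lower by at least as much. The adjusted p was 0.135 in limma with its default prior. It was 0.00109 with the trended and robust prior, 0.0105 with the trended prior and 0.0287 after normexp background correction, so that the call turns on the variance model and on the background correction. Without any one array the difference lay between -1.03 and -0.92.

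Rspo1, the R-spondin first known for its part in ovary determination and also made by nephron progenitors, had processed signals of 7306 ± 731 and 7926 ± 793 in the Sall1 knockout kidneys, against 11400 ± 1140 and 10522 ± 1052 in the control kidneys. Both knockout values were below both control values by more than the gap within either group. The log2 signal was 3.77 and 3.93 in the knockout and 4.26 and 4.26 in the control arrays, a log2 difference of -0.41 ± 0.078 (SE, n = 2 per group; 95% interval -0.63 to -0.19). Over all tested, 2.74% were lower by at least as much, and among the 1166 whose mean log2 signal lay within 0.5 of that of Rspo1, 1.20% differed by at least as much in either direction. Its adjusted p was 0.271 in limma, and 0.0278 with the trended and robust prior, under which Rspo1 and Rspo3 were the 2 of 8 tested members called lower, against 0.654% of all tested. Without any one array the difference lay between -0.49 and -0.33.

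**Figure D1:**
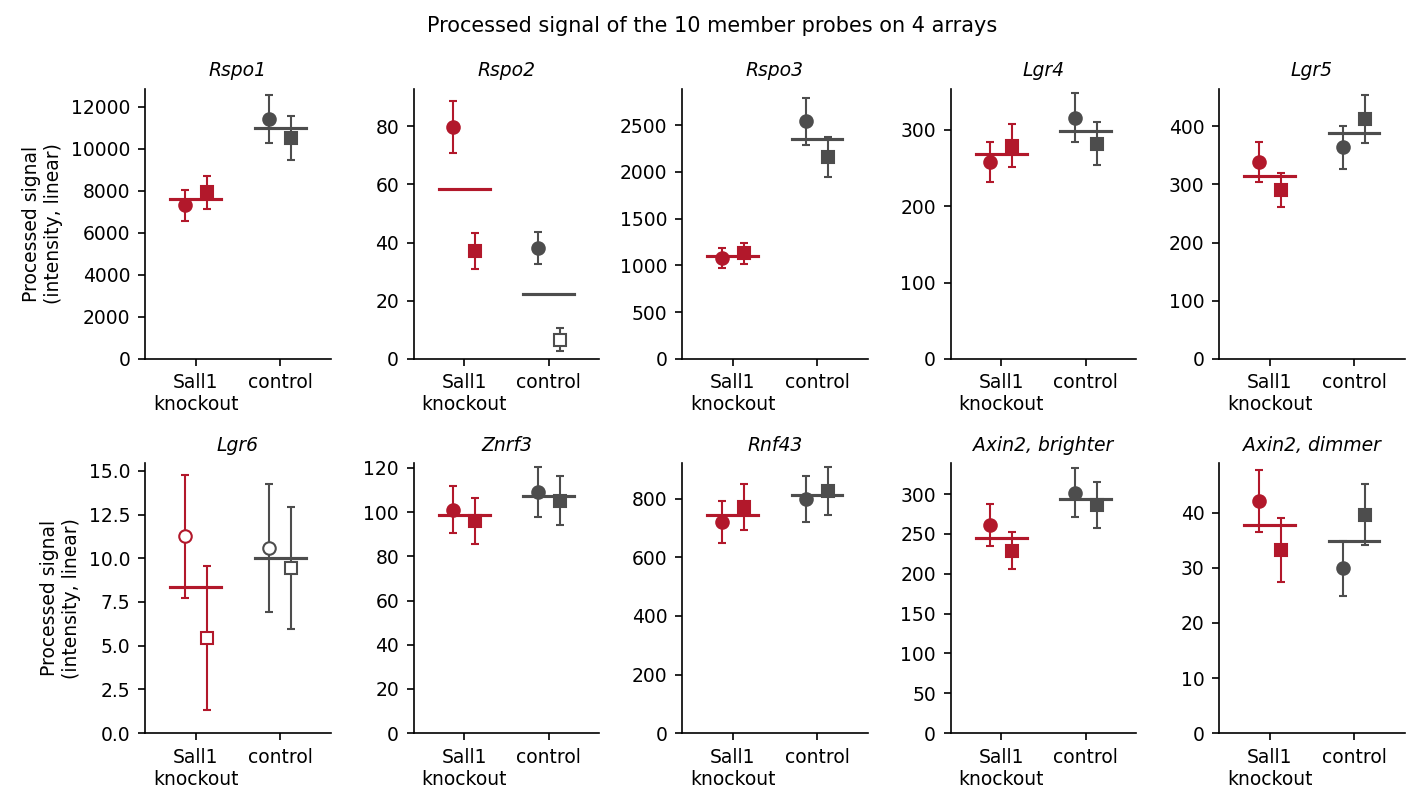
Processed signal (linear intensity, each axis from 0) of the 10 member probes in Sall1 knockout (red) and control (grey) kidneys; circles are replicate 1, squares replicate 2, open symbols are spots not well above background, error bars are the scanner software's error and lines are group means. Rspo3 and Rspo1 show both knockout arrays below both control arrays, whereas Rspo2 spans 37.2 to 79.6 in the knockout and 6.59 to 38.1 in the control arrays.

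Markers of nephron progenitors, cells known to make Rspo1 and Rspo3, were lower in the same arrays. Of 14 such markers, all tested, 11 were lower in both knockout arrays than in both controls, 0 were higher and 3 overlapped, where 27.7% of all tested were lower and 21.5% higher without overlap. Their median log2 difference was -0.52, against -0.013 over all tested, and their summed signal, in units of the 75th percentile, was 93.2 to 100.9 in the knockout and 134.7 to 141.4 in the control arrays; none of the 14 was below background on all arrays. By limma 0 of them were called, and with the trended and robust prior 6 were called lower and 0 higher. These markers, like the other lists, were chosen with earlier results of these data known, so the counts are not independent of the data. In whole kidneys, fewer cells of a type and less RNA per cell cannot be told apart, and the part of these cells in the Rspo1 and Rspo3 difference was not tested.

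Stroma is another known source of Rspo3 in the kidney. Of 12 stromal markers 5 were higher and 2 lower without overlap, against 21.5% and 27.7% of all tested. Their median log2 difference was 0.23, with a summed signal of 153.3 to 164.6 in the knockout and 122.9 to 144.5 in the control arrays. Of 13 markers of adrenal gland and gonad, tissues beside the kidney that also make R-spondins, 9 were tested. Of these 1 was higher and 3 lower without overlap, against 21.5% and 27.7% of all tested, with a median log2 difference of -0.19. The summed signal was 27.0 to 30.4 in the knockout and 26.6 to 28.9 in the control arrays, and the brightest markers, Foxl2 and Cyp17a1, weigh most in it. With the trended and robust prior 1 was called lower and 0 higher. That was Mc2r, 1.53-fold lower (adjusted p = 0.184 in limma with its default prior, 0.0275 with the trended and robust prior). The gonadal and steroidogenic markers Amh, Cyp11a1 and Fshr were on none of the arrays well above background.

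Rspo2, an R-spondin with roles in limb, lung and neuromuscular junction, gave a faint signal. Its processed signal was 79.6 ± 8.88 and 37.2 ± 6.16 in the Sall1 knockout kidneys, against 38.1 ± 5.62 and 6.59 ± 4.03 in the control kidneys, where the second value was not well above background. Before scaling the groups overlapped, since knockout replicate 2 lay just below control replicate 1; after scaling, with log2 signals of -2.75 and -3.81 in the knockout against -3.97 and -6.38 in the control arrays, they did not, by a margin of less than either spot's error. The knockout minus control difference in log2 signal was 1.90 ± 0.96 (SE, n = 2 per group; 95% interval -0.82 to 4.61; adjusted p = 0.479 in limma). Only 1 of the 2 control arrays measured Rspo2 above background, and the probe entered the test through the knockout arrays, so the difference has no firm size. It was 0.69 without control replicate 2 and 0.52 after normexp correction; without one of the other arrays it ran from 1.36 to 3.10, values set in part or wholly against the spot below background.

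Summed markers of skeletal muscle, stroma and macrophages each had the same order over the 4 arrays as scaled Rspo2, so this order is not particular to one of these lists. For skeletal muscle the summed signal was 62.4 and 43.6 in the Sall1 knockout arrays, against 35.3 and 17.3 in the control arrays. For macrophages it was 11.3 and 9.62 in the knockout and 7.92 and 7.27 in the control arrays, and for stroma 164.6 and 153.3 in the knockout and 144.5 and 122.9 in the control arrays. Of 11 muscle markers 10 were tested, 8 higher and 1 lower without overlap, against 21.5% and 27.7% of all tested. Their median log2 difference was 1.13, and Ckm was on none of the arrays well above background. Myod1, the muscle determination factor, had log2 signals of -2.11 and -2.63 in the knockout and -2.98 and -4.61 in the control arrays. The part of these cells in the Rspo2 values was not tested. Rspo4, the R-spondin outside the 9 genes, was on none of the arrays well above background, with processed signals of 3.98 and 9.03 in the knockout and 9.67 and 4.06 in the control kidneys.

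**Figure D2:**
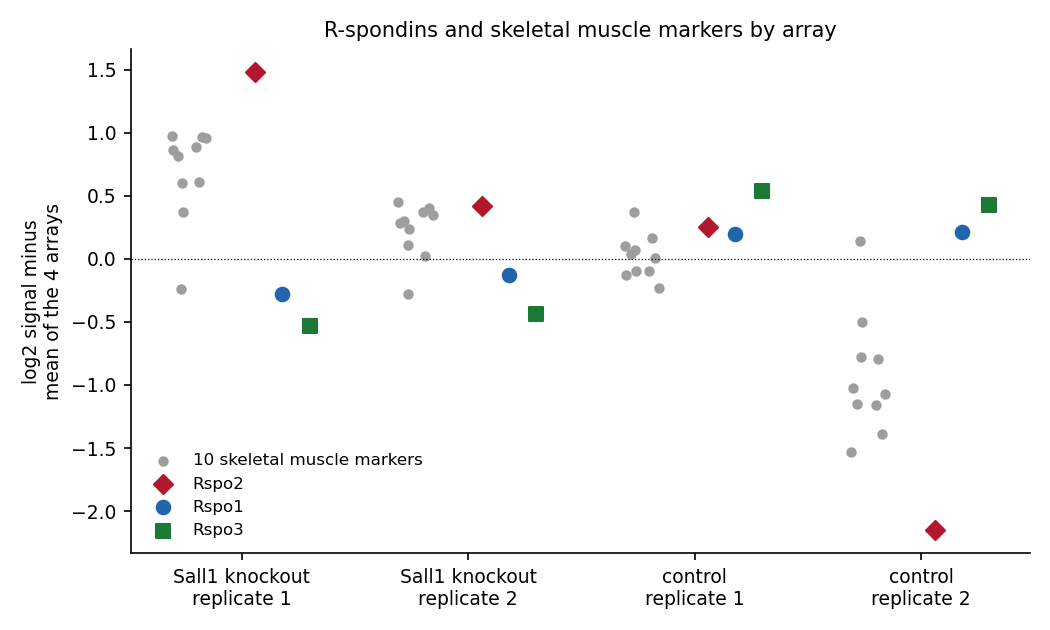
Log2 signal of Rspo2, Rspo1, Rspo3 and of 10 skeletal muscle markers, each minus its mean over the 4 arrays, in Sall1 knockout replicates (left) and control replicates (right). Rspo2 and most muscle markers are lowest in control replicate 2, while Rspo1 and Rspo3 are lower in both Sall1 knockout arrays.

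Among the receptors, Lgr4, the R-spondin receptor whose loss gives small kidneys, had processed signals of 258 ± 26.1 and 279 ± 28.3 in the Sall1 knockout kidneys, against 316 ± 31.8 and 282 ± 28.5 in the control kidneys. After scaling the groups overlapped, with log2 signals of -1.05 and -0.90 in the knockout against -0.92 and -0.96 in the control arrays. Lgr4 differed by -0.037 ± 0.078 (SE, n = 2 per group; 95% interval -0.26 to 0.18; adjusted p = 0.851 in limma).

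Lgr5, a receptor that marks cells of the nascent nephron as well as stem cells of other epithelia, had processed signals of 339 ± 34.1 and 291 ± 29.5 in the Sall1 knockout kidneys, against 364 ± 36.6 and 413 ± 41.5 in the control kidneys. Both knockout values were lower before scaling, but after it knockout replicate 1 (log2 signal -0.66) lay above control replicate 1 (-0.71). Lgr5 differed by -0.19 ± 0.14 on the log2 scale (SE, n = 2 per group; 95% interval -0.59 to 0.21; adjusted p = 0.597 in limma), and it ran from -0.34 to -0.034 without any one array. Lgr6, the third receptor, was on none of the arrays well above background, with processed signals of 11.2 ± 3.52 and 5.46 ± 4.12 in the knockout and 10.6 ± 3.66 and 9.44 ± 3.49 in the control kidneys, and no fold is given.

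The ligases gave the most even values. Znrf3 had processed signals of 101 ± 10.7 and 96.0 ± 10.5 in the Sall1 knockout kidneys, against 109 ± 11.4 and 105 ± 11.1 in the control kidneys. Once each array was scaled the groups overlapped, and Znrf3 differed by -0.0033 ± 0.062 on the log2 scale (SE, n = 2 per group; 95% interval -0.18 to 0.17; adjusted p = 0.986 in limma). Rnf43, its paralogue, had processed signals of 720 ± 72.1 and 772 ± 77.3 in the knockout, against 799 ± 80.0 and 825 ± 82.6 in the control kidneys, with overlap after scaling and a log2 difference of -0.0069 ± 0.096 (SE; 95% interval -0.28 to 0.27; adjusted p = 0.980 in limma). Both are themselves known targets of beta-catenin. The sign turned for Rnf43 with quantile normalization, and for Znrf3 with normexp background correction and with the deposited value table. With 1 array left out, each of the 2 genes kept its sign in 2 of 4 fits.

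Axin2, the readout, had processed signals of 261 ± 26.3 and 229 ± 23.3 in the Sall1 knockout kidneys, against 302 ± 30.4 and 286 ± 28.9 in the control kidneys, on its brighter probe. Both knockout arrays were lower, and the smallest gap between the groups was within the errors of the spots. The log2 signal was -1.03 and -1.19 in the knockout and -0.98 and -0.93 in the control arrays, a log2 difference of -0.15 ± 0.079 (SE, n = 2 per group; 95% interval -0.37 to 0.074; adjusted p = 0.488 in limma). The dimmer probe ran the other way, with processed signals of 42.2 ± 5.66 and 33.2 ± 5.78 in the knockout, against 29.9 ± 4.98 and 39.7 ± 5.53 in the control kidneys. In a fit of all probes its log2 difference was 0.24 ± 0.23 (SE; adjusted p = 0.689 in limma), and the mean of both probes was 0.043 higher in the knockout, so Axin2 has no settled direction here.

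**Figure D3:**
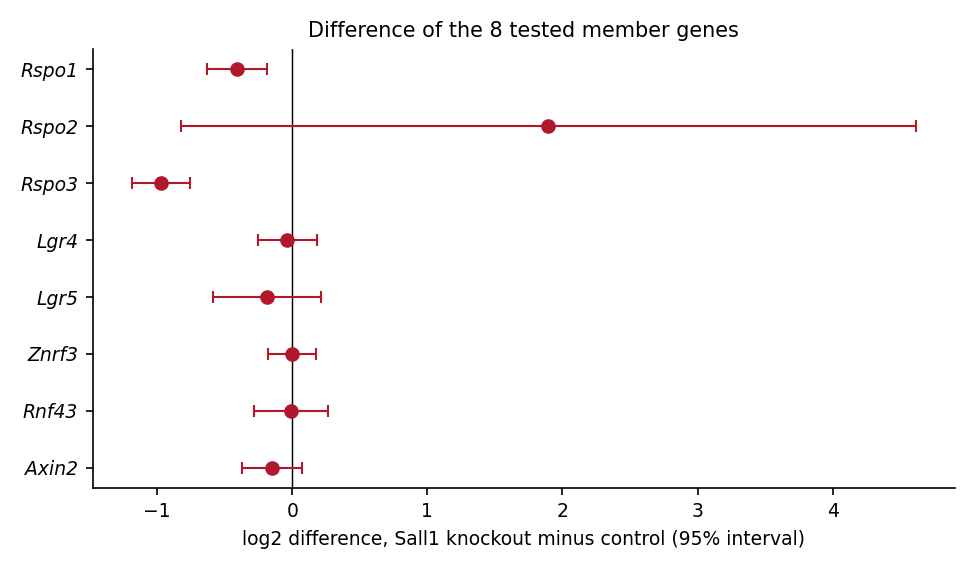
Log2 difference (Sall1 knockout minus control, with the 95% interval from limma) of the 8 tested member genes, 2 arrays per group. The intervals of Rspo1 and Rspo3 lie below 0, that of Rspo2 runs from -0.82 to 4.61, and those of the other 5 genes include 0.

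Of the 8 tested, 3 were lower without overlap of the groups (Rspo1, Rspo3 and Axin2) and 4 overlapped, where 27.7% of all tested were lower, 21.5% higher and 50.8% overlapped. Axin2 counts as lower by its brighter probe, while its dimmer probe was higher with overlap. Rspo2 was the 1 higher, only after scaling and by a margin inside the spots' errors; it passed the filter through the knockout arrays alone, so that nothing is read from its direction or from its place among the 2.48% of all tested that were at least 1.5-fold higher without overlap. At least 1.5-fold lower without overlap was 1 member, Rspo3, against 1.05% of all tested. The median log2 difference of the 8, Rspo2 included, was -0.093, against -0.013 over all tested. It lies midway between the values of Lgr4 (-0.037) and the brighter Axin2 probe (-0.15). The mean of both Axin2 probes was 0.043, so this median depends on the choice of probe. In signs, 7 of the 8 differences were negative, that of Axin2 on its brighter probe only. Over all tested 53.6% were negative and 46.4% positive. The differences of Lgr4, Znrf3 and Rnf43 were smaller than their standard errors.

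**Figure D4:**
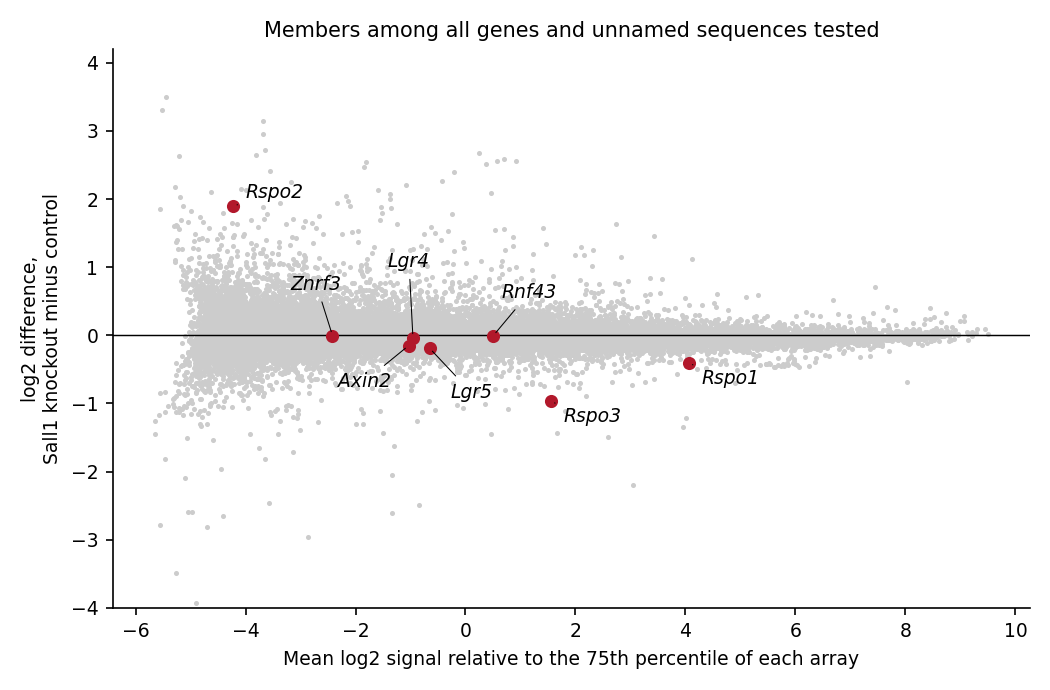
Log2 difference (Sall1 knockout minus control) against mean log2 signal (scaled to the array's 75th percentile), for all 25071 features tested (grey) and the 8 tested members (red). Rspo3 and Rspo1 lie at the lower edge of genes of their brightness, Rspo2 lies among dim probes with a wide spread, and the other 5 lie near 0.

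The rest of the pathway was read from 3 lists in the same fit. Of 18 Wnt receptors and co-receptors 0 were called in limma. With an unadjusted p under 0.05, 3 were higher and 1 lower, against 6.77% and 5.94% of all tested. The list had a median log2 difference of 0.0042. The 4 genes with the smallest p in each list were picked by these same values, so their lack of overlap adds no support. Here higher were the Frizzled receptors Fzd9 by 1.52-fold (log2 difference 0.61 ± 0.17, SE), Fzd10 by 1.44-fold and Fzd1 by 1.20-fold. Lower was Ryk, a Wnt receptor of the tyrosine kinase family, by 1.12-fold. Lrp6, the co-receptor that Znrf3 and Rnf43 also control, differed by -0.084 ± 0.099 (SE).

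Of 21 components that carry the signal inside the cell 0 were called in limma. With an unadjusted p under 0.05, 0 were higher and 1 lower, against 6.77% and 5.94% of all tested. The list had a median log2 difference of 0.0051. Tcf7l1, a TCF factor that mainly represses targets, was 1.24-fold lower (log2 difference -0.31 ± 0.063, SE; adjusted p = 0.278 in limma). The scaffold genes Axin1 and Amer1 were 1.09-fold and 1.10-fold lower and the co-activator Bcl9l was 1.13-fold higher, and none of these passed. Ctnnb1, which encodes beta-catenin, differed by -0.050 ± 0.058 (SE), and Tcf7l2, a TCF factor, by 0.12 ± 0.087 (SE).

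Of 16 target and feedback genes 0 were called in limma. With an unadjusted p under 0.05, 2 were higher and 3 lower, against 6.77% and 5.94% of all tested. The list had a median log2 difference of -0.012. Dkk1, a secreted inhibitor that binds Lrp6, was 2.01-fold lower, with log2 signals of -0.26 and -0.046 in the knockout and 0.67 and 1.04 in the control arrays. Tnfrsf19, a receptor gene of the TNF family that beta-catenin switches on, was 1.39-fold lower (adjusted p = 0.216 in limma) and was the only gene of the list called under the trended and robust prior (adjusted p = 0.0212); its other probe differed by 0.12. Cd44 and Ascl2 were 1.22-fold and 1.17-fold higher. Lef1 differed by -0.13 ± 0.10 (SE), with overlap. The members' median of -0.093, which depends on the choice of Axin2 probe, stood beside medians of -0.012 to 0.0051 in the 3 lists. None of these was tested against it.

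**Figure D5:**
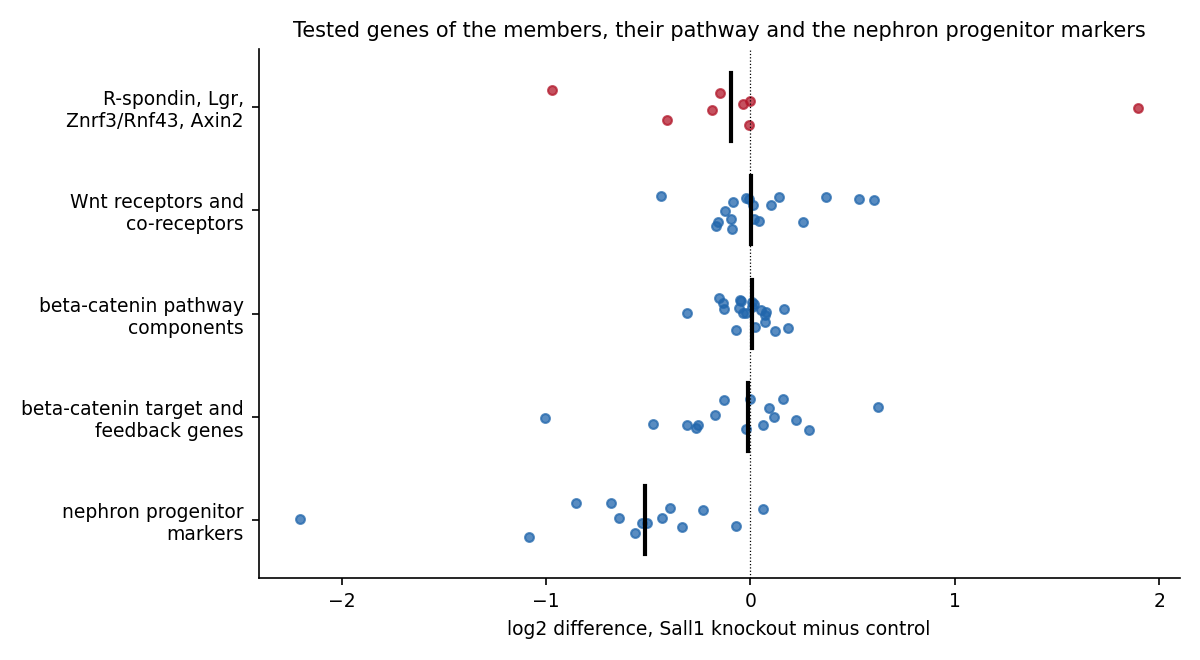
Log2 difference (Sall1 knockout minus control) of each tested gene in 5 lists, with a black bar at the list's median; the vertical position within a list is arbitrary. The 3 pathway lists centre near 0, and the nephron progenitor markers have a median of -0.52. The members, with Axin2 shown by its brighter probe, have a median of -0.093 with Rspo3 and Rspo2 at either end.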

How the data were processed

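Total RNA (0.25 µg per sample, Cy3-labelled) of 2 Sall1 knockout and 2 control kidney samples was measured on 4 arrays, per the labels. Per the file headers, the software was Agilent Feature Extraction 10.7.3.1 and the array design 028005 (mm9), and the processed signal is an intensity corrected within each array for background and spatial trends, without scaling between arrays. A value table, also deposited, was on the same intensity scale: over 55249 single-spot probes 100% agreed within 1%, with column medians of 47.76 and 45.79 for the knockout and 52.29 and 47.07 for the control arrays. All arrays lay on 1 slide in 1 scan, so these give no batches. Replicates were numbered in sample order.

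Log2 signals were scaled to each array's 75th percentile (534 and 521 in the knockout, 597 and 548 in the control arrays). Control spots and 147 to 174 outlier-marked spots per array were left out, and 34253 probes stayed, each well above background in every array of one group or both. RefSeq accessions named 26413 probes through a GRCm38.p6 table; 29268 stayed unnamed. The brightest probe stood for each gene, giving 15078 named genes and 9993 unnamed sequences. The test was limma 3.58.1 under R 4.3.3 (lmFit and eBayes, default prior, two-sided, Benjamini-Hochberg adjustment over all tested). It was also run on simulated data with variances drawn from a trended prior, and nothing is read from that run here. Members, lists and alternatives were chosen with earlier results of these data known. Named genes were the 9 members, Rspo4, Sall1, the 4 genes of each pathway list with the smallest unadjusted p, and Lef1, Ctnnb1, Lrp6 and Tcf7l2. Myod1, Mc2r, Foxl2, Cyp17a1 and markers below background were named after their values were seen. Alternatives were normexp correction (offset 50, on the median signal), quantile normalization, median centring, other filters, marked spots kept, the mean over probes, other variance priors, array weights, the deposited table, an adjusted p under 0.1 and each array left out. The number of arrays limits the precision.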

Additional observations from a re-analysis of the deposited data

How the results depend on the processing

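Of 12 alternatives, 7 leave the Rspo3 and Rspo1 differences identical. They alter only the test, the filter or the averaging of probes, so for these 1-probe genes they could not move the difference. Under the other 5 the log2 difference was -0.98 to -0.91 for Rspo3 and -0.43 to -0.36 for Rspo1. Both stayed negative without each of the 4 arrays. Rspo2 lay between 0.52 and 1.90 under the same 5. Over all tested, limma called 0 with the default prior, 21 at an adjusted p under 0.1, 41 with normexp correction, 118 with the trended and 300 with the trended and robust prior. Member genes and member probes called were 1 each with normexp correction (Rspo3), 1 each with the trended prior (Rspo3) and 2 each with the trended and robust prior (Rspo1 and Rspo3), and 0 at an adjusted p under 0.1; the trended and robust prior also called 1 target and feedback gene. Genes at least 1.5-fold apart without overlap numbered 887, against 231 with normexp, 584 above background on all 4 arrays, 2927 with no filter and 279 at 2-fold. With an array left out the count is not comparable, since lack of overlap is then easier to meet. The sign turned for Axin2 with the mean over its probes (0.043), for Rnf43 with quantile normalization (0.0014), and for Znrf3 with the deposited table (0.0036) and normexp (0.053). Without any one array Lgr4 ranged from -0.11 to 0.038, Rnf43 from -0.093 to 0.079 and Znrf3 from -0.040 to 0.033. List medians moved to 0.075 for target and feedback genes with the mean over probes, and ranged from -0.049 to 0.068 for that list and from -0.056 to 0.014 for receptors without any one array. The causes were not tested. No paired analysis was possible because the titles give the groups no shared replicate numbers. Signal over local background limits Rspo2, whose raw signal was at most 3.33 times it, the dimmer Axin2 probe, which turns the sign of Axin2, at 2.37 to 2.63 times, and Lgr6, at most 2.18 times.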
